A study of Drosophila melanogaster with 8 samples.

Results

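Cytochrome P450 genes encode heme-containing monooxygenases, and the members described here were the genes whose symbol starts with Cyp and a digit. Of 16727 gene symbols in the count tables, 83 matched this rule. One of them, *Cyp1*, encodes a cyclophilin, a peptidyl-prolyl isomerase that is not a P450, and it was set aside, which left 82 P450 genes. P450 genes that carry another symbol, such as those for ecdysone synthesis, were outside the rule and are given as a separate list. The study compared RNA from heads of adult *Drosophila melanogaster*, 1 to 2 weeks old and grown at 25 °C, in a *Top3β* mutant and in its genetic background. In 4 libraries the genotype label reads *Top3b26*, an allele made by imprecise excision of a P element at *Top3β*, and in the other 4 it reads w1118, the white-eyed stock in which that allele was kept, so that all 8 libraries came from white mutant flies. Each genotype had 4 replicates, and the sex of the flies was not given in the sources used here. The paper's methods speak of RNA samples prepared independently, in fewer sets than the 4 replicates labelled. Neither they nor the labels say that replicates were separate cultures. The p-values therefore measure only the spread between these samples, which may be technical. *Top3β* itself had 91.6, 79.9, 44.4 and 42.3 CPM (gene counts scaled to a library total of 1e6) in libraries labelled *Top3b26*, against 34.04, 40.6, 27.8 and 23.8 CPM in libraries labelled w1118, which is the opposite of a loss of transcript. Reads from outside a deletion cannot check the allele, and which part of *Top3β* the counts came from is not known, so every direction given here rests on the labels.

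P450 enzymes insert an oxygen atom into small lipophilic molecules, using electrons passed on by NADPH-cytochrome P450 reductase in the endoplasmic reticulum or by ferredoxins in mitochondria. Insect members fall into the CYP2, CYP3, CYP4 and mitochondrial clans. They make and break down ecdysteroid hormones, hydroxylate fatty acids, form the hydrocarbons of the cuticle and clear plant toxins and insecticides, and many are transcribed in fat body, gut, Malpighian tubule, oenocytes or glia. The 82 genes comprised 4 members of the CYP2 clan, 37 of the CYP3 clan, 32 of the CYP4 clan and 9 of the mitochondrial clan. By chromosome, 34 lay on 2R, 15 on 3R, 14 on X, 13 on 2L and 6 on 3L.

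The libraries held 4816757 to 6685891 counts in the 4 labelled *Top3b26* and 3301976 to 7591510 counts in the 4 labelled w1118, so that 3 counts correspond to 0.395 to 0.909 CPM. Several libraries stood apart in markers of other cell types. The 5 photoreceptor genes summed to 1418 and 1370 CPM in *Top3b26* replicates 1 and 2, against 17206 and 21103 CPM in *Top3b26* replicates 3 and 4 and 22816 to 32064 CPM in w1118. The 9 fat body genes summed to 9512 to 16934 CPM in *Top3b26*, against 14050 and 10182 CPM in w1118 replicates 1 and 2 and 38823 and 52762 CPM in w1118 replicates 3 and 4. The yolk protein genes *Yp1*, *Yp2* and *Yp3*, which are also female markers, held most of that sum in every library. They were highest in w1118 replicates 3 and 4. *Lsp2*, *apolpp* and *fit* were also highest there, whereas *to*, *Fbp1* and *Fbp2* were not. Fat body content, sex ratio and yolk gene expression cannot be told apart in this sum. The 8 clock genes summed to 2188 to 2496 CPM in *Top3b26*, against 3519 and 3838 CPM in w1118 replicates 1 and 2 and 2244 and 2404 CPM in w1118 replicates 3 and 4. Neuron markers were at 6669 to 8516 CPM in *Top3b26* and 6132 to 6757 CPM in w1118, and glia markers at 1834 to 2798 CPM in *Top3b26* and 1612 to 2391 CPM in w1118. Malpighian tubule markers, 1 of 5 of which had no count in any library, were at 136 to 223 CPM in *Top3b26* and 143 to 190.5 CPM in w1118. Gut markers, 1 of 8 of which had no count in any library, summed to 16.5 to 19.5 CPM in *Top3b26* and 31.0 to 42.1 CPM in w1118, and that difference lay in *Amy-p*, an amylase, with means of 8.33 CPM in *Top3b26* and 26.6 CPM in w1118 (log2 fold change -1.77, edgeR adjusted p = 0.028). In bulk heads, fewer cells of a type and less RNA per cell cannot be told apart.

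P450 transcripts made up a small share of each head library, and a few members held much of it. The 82 genes summed to 2706, 2652, 2744 and 3061 CPM in *Top3b26*, against 1957, 1846, 2507 and 2664 CPM in w1118, so that the groups overlapped across replicate numbers, while the sum was higher in *Top3b26* within 4 of 4 replicate numbers. These sums are scaled to library totals alone, under which the median log2 fold change of all tested genes was 0.12. The numbers may also not pair the samples beyond their replicate set. The 10 most counted members held 46.4% to 57.5% of P450 counts in each library. In all, 6 members averaged at least 100 CPM over the 8 libraries, namely *Cyp9f2*, *Cyp6d5*, *Cyp313a1*, *Cyp6a20*, *Cyp4p1* and *Cyp28a5*, whereas 37 averaged under 10 CPM. Per kilobase of exon, *Cyp9f2* led with 144 CPM, followed by *Cyp6d5* with 129, *Cyp313a1* with 108, *Cyp4p1* with 64.1 and *Cyp6a20* with 62.2. *Cyp6a20* is known for its link to aggressive behaviour in males.

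Of the 82 genes, 70 passed the filter on low counts and were tested among 9633 genes. A gene was called when edgeR's quasi-likelihood test gave a Benjamini-Hochberg adjusted p of at most 0.05 and the fold change was at least 1.5. In libraries labelled *Top3b26*, 2 P450 genes, *Cyp6a2* and *Cyp4d21*, were called higher, and 2, *Cyp4g1* and *Cyp4s3*, were called lower. The calls covered 0.249% of all tested genes in the higher direction and 0.664% in the lower direction. The other 66 tested members were not called, and the log2 fold changes of the 70 were split into 36 positive and 34 negative values. Their median was 0.02, against -0.01 over all tested genes. Scaling to library totals alone, as in CPM, put these medians at 0.15 and 0.12, so that CPM values run slightly higher in *Top3b26* across all genes.

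**Figure D1:**
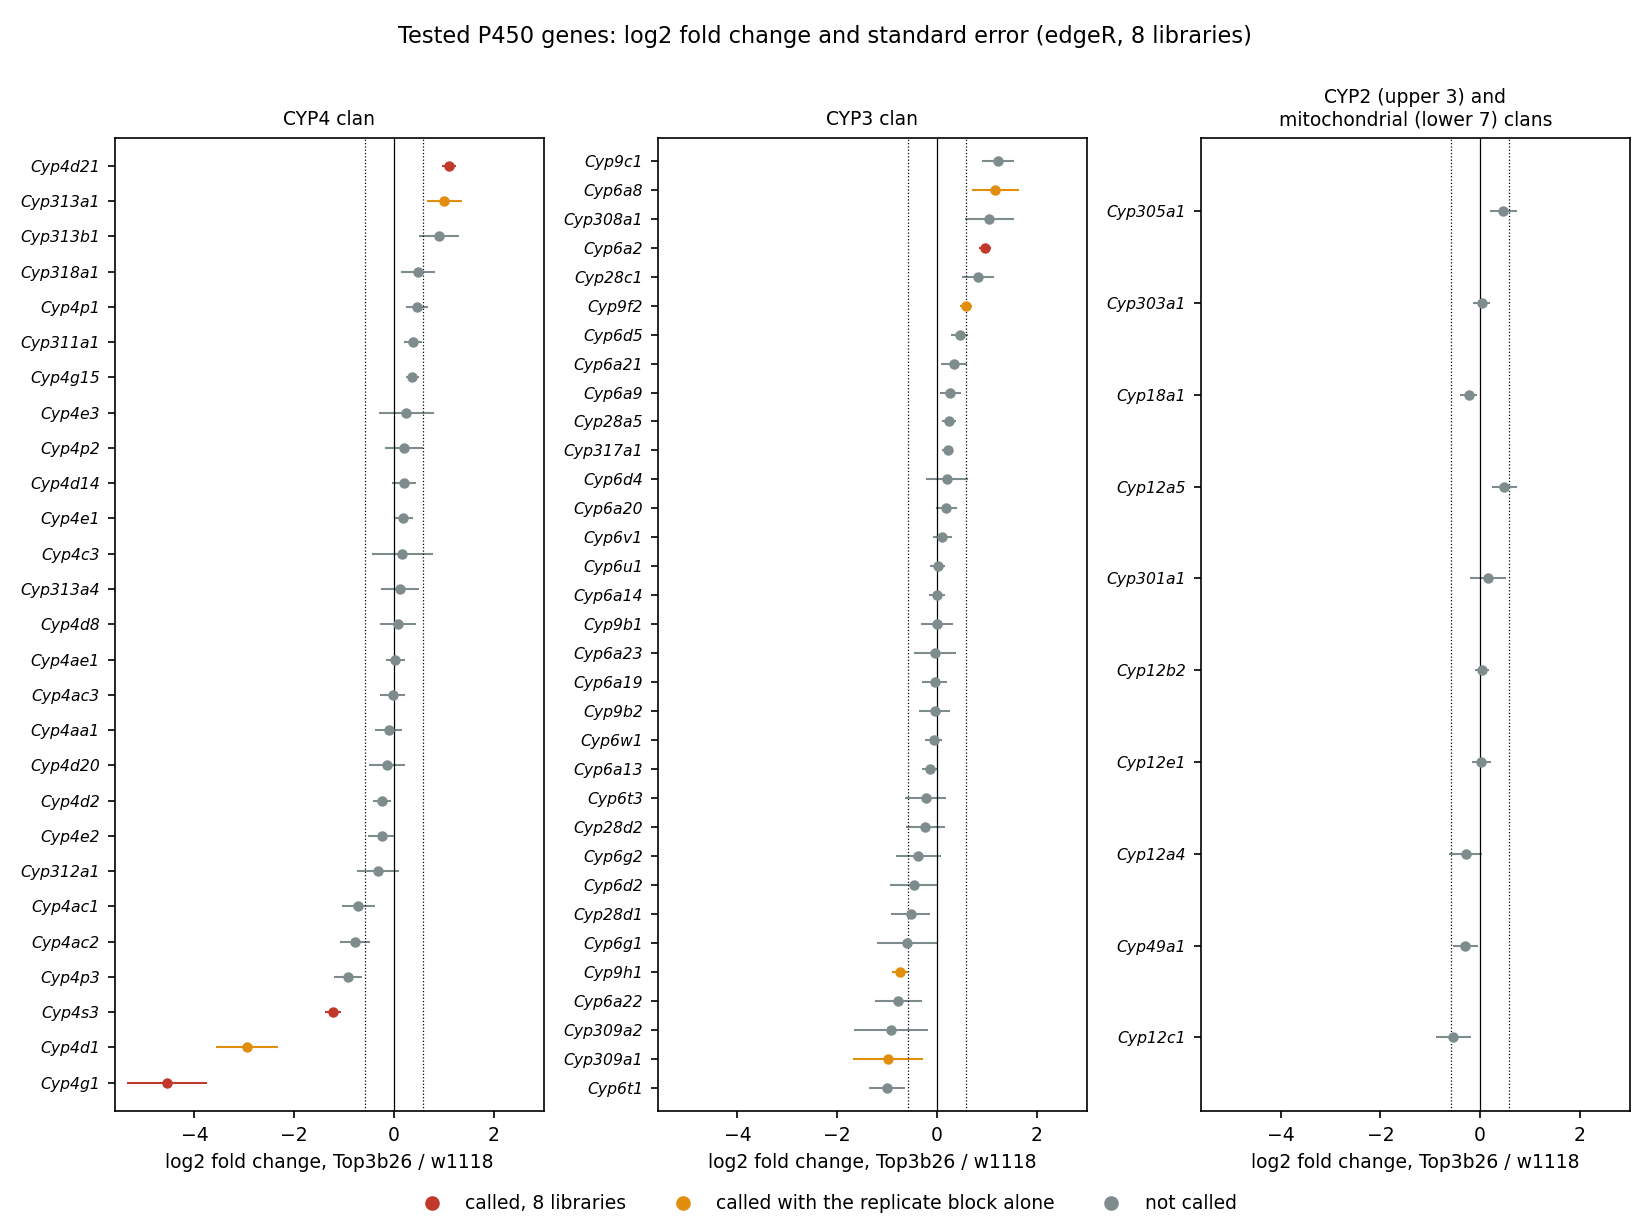
Log2 fold change, libraries labelled *Top3b26* over w1118, for the 70 tested P450 genes (x axis; bars are standard errors from edgeR, 4 libraries a group), ordered by value within clans. Dotted lines mark a fold change of 1.5. In red are 4 called genes, from *Cyp4g1* at -4.54 to *Cyp4d21* at 1.11, and orange points mark 6 further genes called with the replicate number as a block.

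*Cyp6a2*, a detoxifying enzyme linked to DDT resistance, had 83.7, 93.5, 75.4 and 94.7 CPM in *Top3b26*, against 37.0, 43.9, 39.9 and 42.2 CPM in w1118. Every *Top3b26* library lay above every w1118 library, with means of 86.8 ± 9.10 CPM in *Top3b26* and 40.7 ± 2.97 CPM in w1118 (SD, n = 4 each). The log2 fold change was 0.96 ± 0.13 (SE, edgeR adjusted p = 0.0088), with 1.00 for replicates 1 and 2 and 0.95 for replicates 3 and 4. The gene lies at chr2R:6779749-6781491 on the minus strand of dm6.

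*Cyp4d21*, also named sxe1, is a CYP4 enzyme of the fat body in the male head that has been linked to courtship. It had 174, 150.3, 113 and 109 CPM in *Top3b26*, against 66.2, 69.7, 48.1 and 48.3 CPM in w1118. Levels were higher in replicates 1 and 2 than in 3 and 4 of both genotypes, yet the groups did not overlap. The log2 fold change was 1.11 ± 0.15 (SE, edgeR adjusted p = 0.0096), with 1.11 and 1.10 in the 2 replicate sets. As a male marker, *roX1* was at 4709, 3659, 1803 and 1491 CPM in *Top3b26* and 3196, 3082, 1317 and 1038 CPM in w1118. It differed by 0.31 on the log2 scale (edgeR adjusted p = 0.82). The female markers *Yp1*, *Yp2* and *Yp3*, yolk protein genes that are also in the fat body list, had log2 fold changes of -1.53, -1.52 and -1.20 (edgeR adjusted p = 0.31 to 0.34). *Yp1* was at 3398, 6024, 3313 and 4151 CPM in *Top3b26*, against 4683, 3579, 14560.0 and 19891 CPM in w1118. The part of sex ratio in the *Cyp4d21* difference was not tested. The gene lies at chr2L:7605600-7607701 on the plus strand.

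*Cyp4g1*, the oxidative decarbonylase of oenocytes that completes cuticular hydrocarbons, showed the largest fold change of the 70 genes in the 8-library fit. It had 1.08, 1.05, 0.415 and 0 CPM in *Top3b26*, against 9.97, 2.42, 22.2 and 18.05 CPM in w1118. These values rest on 15 counts over the 4 *Top3b26* libraries and 348 over the 4 w1118 libraries. The fitted log2 fold change was -4.54 ± 0.80 (SE, edgeR adjusted p = 0.037), or 23.3-fold lower. Replicates 1 and 2 gave -2.79 and replicates 3 and 4 gave -6.77, and the test of that difference gave an adjusted p of 0.054 (edgeR). The call was lost when any library other than w1118 replicate 2 was left out (edgeR adjusted p = 0.070 to 0.13), while the log2 fold change stayed between -5.23 and -3.91 over all 12 fits that leave out a library or a replicate number. Per kilobase of exon, *Cyp4g1* averaged 3.03 CPM over the 8 libraries, and its brain paralog *Cyp4g15* averaged 19.8 CPM. The gene lies at chrX:467057-469335 on the minus strand.

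*Cyp4s3*, a CYP4 member at chrX:15113302-15116542 on the minus strand, had 22.6, 16.3, 17.9 and 16.6 CPM in *Top3b26*, against 42.1, 50.6, 31.6 and 33.5 CPM in w1118. All 4 *Top3b26* libraries were below all 4 w1118 libraries. The log2 fold change was -1.22 ± 0.16 (SE, edgeR adjusted p = 0.0083), with -1.39 and -1.03 in the 2 replicate sets. Exons of *Rab3-GEF* on the opposite strand cover 20.1% of its exon bases, and whether the counting used strand is not given in the sources used here, so reads of the 2 genes may be mixed. Leaving out both libraries of 1 replicate number raised the adjusted p of *Cyp6a2*, *Cyp4d21* and *Cyp4s3* above 0.05 in each of the 4 cases (edgeR adjusted p = 0.053 to 0.12) without moving their direction. Without *Top3b26* replicates 1 and 2, which had few photoreceptor transcripts, the replicate sets were no longer balanced between genotypes, and edgeR called 0 of 72 P450 genes, against 0.0709% of all tested genes in the higher and 0.203% in the lower direction. Before adjustment, p reached 0.05 or less for 15 higher and 5 lower members. The share of all genes at that p is not given here for this fit, so the count cannot be read as particular to P450 genes. In that fit *Cyp6a2* was at 1.03, *Cyp4d21* at 0.92, *Cyp4s3* at -1.21 and *Cyp4g1* at -6.15 (edgeR adjusted p = 0.065 to 0.20). Without w1118 replicates 3 and 4, which were high in fat body transcripts and whose absence also left the sets unbalanced, edgeR called *Cyp6a2* and *Cyp9c1* higher (0.535% of all genes) and *Cyp4s3* and *Cyp304a1* lower (1.02% of all genes). With all 8 libraries, DESeq2 called 4 members higher and 4 lower (0.623% and 1.79% of all genes), adding *Cyp9f2*, *Cyp9c1*, *Cyp4d1* and *Cyp9h1*. Limma voom called 2 higher and 1 lower (0.239% and 0.654% of all genes), without *Cyp4g1*.

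**Figure D2:**
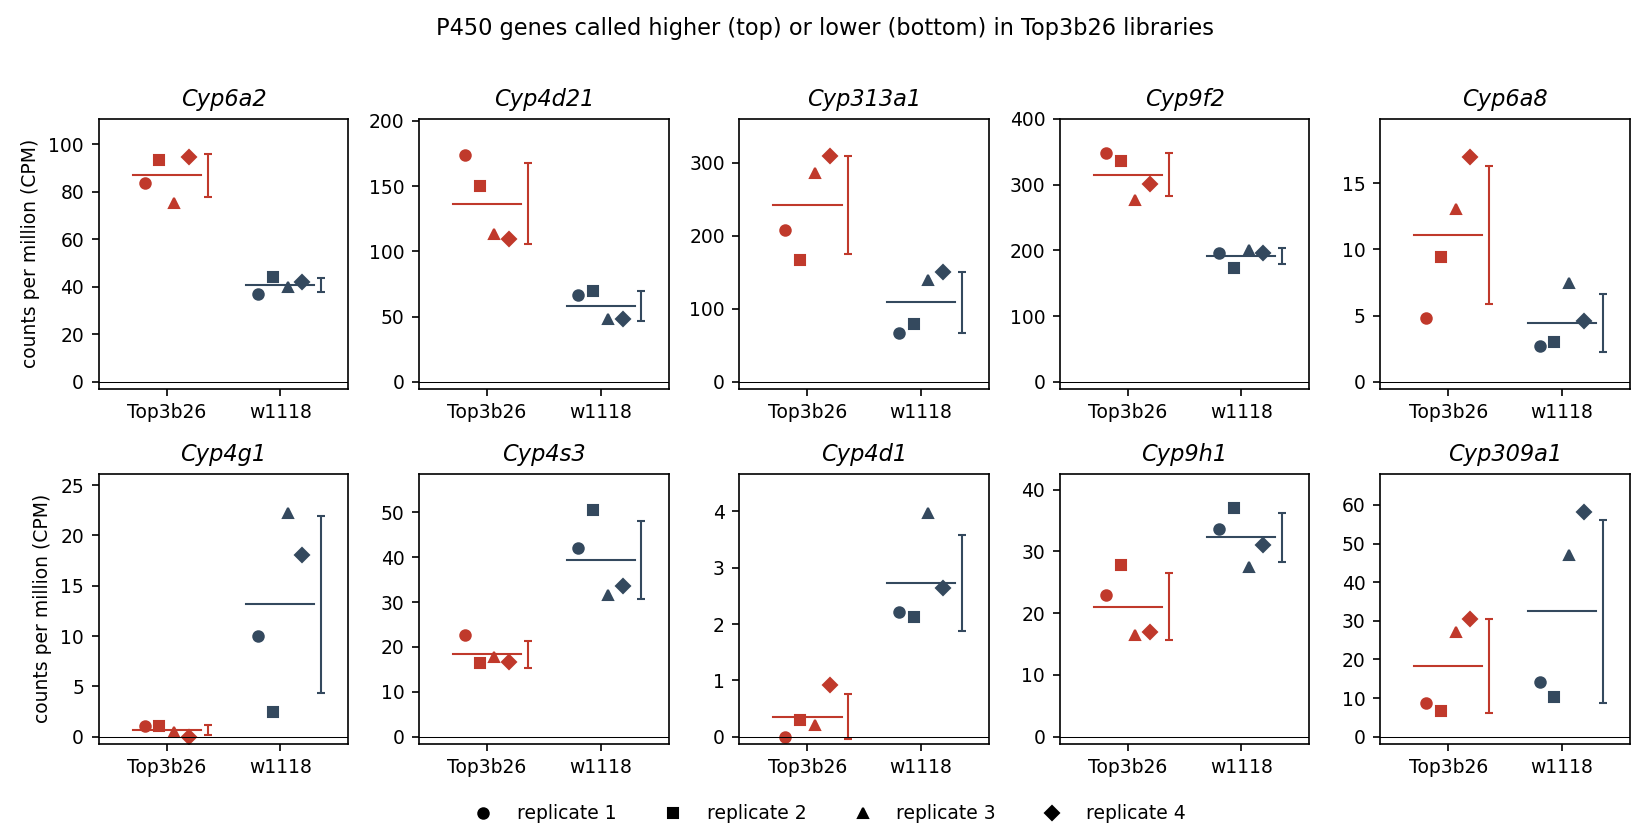
CPM of the 10 P450 genes called with all 8 libraries or with the replicate block (y axes start near 0; symbols are replicates 1 to 4, horizontal lines are means and side bars are SD, n = 4). *Cyp6a2* and *Cyp4d21* (top) and *Cyp4g1* and *Cyp4s3* (bottom) do not overlap between genotypes. *Cyp309a1* overlaps across replicate sets, with all values of replicates 3 and 4 above those of replicates 1 and 2.

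Libraries with the same replicate number deviated together, and so did those of the other number in the same replicate set, 1 and 2 or 3 and 4. The numbers are therefore not shown to pair the samples beyond the shared set. A fit with the replicate number as a block called 5 P450 genes higher and 5 lower. Over all tested genes that fit called 0.914% higher and 2.91% lower. The added members were *Cyp313a1*, *Cyp6a8* and *Cyp9f2* in the higher direction and *Cyp4d1*, *Cyp9h1* and *Cyp309a1* in the lower direction. With the replicate set as the term instead of the number, 6 members were called higher and 8 lower (1.41% and 4.18% of all genes).

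*Cyp313a1*, a CYP4 clan gene at chr3R:14521049-14523064, had 207, 166, 285 and 309.4 CPM in *Top3b26*, against 67.0, 79.6, 139 and 150.2 CPM in w1118. It was higher in replicates 3 and 4 of both genotypes and its groups did not overlap. With the block its log2 fold change was 1.06 ± 0.12 (SE, edgeR adjusted p = 0.0031), against 1.01 ± 0.35 without it (adjusted p = 0.29). *Cyp9f2*, the most abundant member, had 349, 336, 276 and 301.4 CPM in *Top3b26*, against 196, 173, 201 and 196 CPM in w1118. The groups did not overlap, and the log2 fold change was 0.59 ± 0.11 with the block (SE, edgeR adjusted p = 0.024), close to the fold threshold. *Cyp6a8*, which hydroxylates lauric acid, had 4.85, 9.42, 13.1 and 17.0 CPM in *Top3b26*, against 2.69, 3.03, 7.46 and 4.61 CPM in w1118. It overlapped across the groups but was higher in *Top3b26* within each replicate number, at 1.17 ± 0.24 on the log2 scale with the block (SE, edgeR adjusted p = 0.034).

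*Cyp4d1*, a CYP4 member at chrX:2159145-2162180, had 0, 0.299, 0.208 and 0.92 CPM in *Top3b26*, against 2.22, 2.12, 3.97 and 2.63 CPM in w1118. The difference rests on 9 counts in *Top3b26* and 66 in w1118, and no library held more than 25. With the block its log2 fold change was -2.91 ± 0.56 (SE, edgeR adjusted p = 0.026). *Cyp9h1*, of the CYP3 clan, had 23.0, 27.8, 16.4 and 16.9 CPM in *Top3b26*, against 33.6, 36.9, 27.5 and 31.1 CPM in w1118, a block log2 fold change of -0.77 ± 0.13 (SE, edgeR adjusted p = 0.015). *Cyp309a1* had 8.80, 6.73, 27.0 and 30.5 CPM in *Top3b26*, against 14.2, 10.3, 47.0 and 58.2 CPM in w1118. Here replicates differed more than genotypes, and the block log2 fold change was -0.91 ± 0.13 (SE, edgeR adjusted p = 0.0063). Within replicates 1 and 2 the log2 fold change was -0.85, and within replicates 3 and 4 it was -0.98.

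Within replicates 1 and 2 alone, edgeR called 9 P450 genes higher and 8 lower of 71 tested (3.5% and 7.03% of all genes). Within replicates 3 and 4 alone it called 5 higher and 11 lower of 70 tested (1.52% and 5.95% of all genes). *Cyp6a2*, *Cyp4d21* and *Cyp313a1* were called higher in both sets, and *Cyp4g1*, *Cyp4s3*, *Cyp4d1* and *Cyp9h1* were called lower in both. By CPM, 11 of the 70 genes lay higher in every *Top3b26* library than in any w1118 library, against 7.64% of all tested genes, and 3 lay lower, against 2.58%.

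The genotype difference itself differed between the replicate sets for 10 of the 70 genes (edgeR interaction test, adjusted p of at most 0.05), against 7.31% of all tested genes. Of these, 9 had opposite signs in the 2 sets. Without w1118 replicate 4 the count was 4, and without *Top3b26* replicate 3 it was 5. The shares of all genes in those 2 fits are not given here.

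*Cyp6g1*, whose overexpression gives resistance to DDT and neonicotinoids, had 51.9, 80.5, 84.1 and 98.7 CPM in *Top3b26*, against 31.3, 35.1, 163 and 194 CPM in w1118. It was thus higher in *Top3b26* in the pair of replicates 1 and 2 (log2 fold change 0.86 ± 0.19, edgeR adjusted p = 0.0031) and lower in replicates 3 and 4 (-1.07 ± 0.12, adjusted p = 0.00012; SE). The interaction was -1.97 ± 0.25 (SE, edgeR adjusted p = 5.5e-05). *Cyp28d1*, a gene of nicotine tolerance, had 64.8, 72.8, 86.2 and 101 CPM in *Top3b26*, against 64.0, 53.9, 138 and 164 CPM in w1118. *Cyp309a2*, next to *Cyp309a1* on 2L, had 7.18, 8.23, 20.3 and 22.5 CPM in *Top3b26*, against 6.65, 5.45, 38.0 and 47.7 CPM in w1118. Both were called lower in replicates 3 and 4 alone, at -0.80 and -1.11 on the log2 scale (edgeR adjusted p = 0.0011 and 0.00050).

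*Cyp12a4*, a mitochondrial P450 linked to lufenuron resistance, and *Cyp4e2* followed the same order at smaller size. *Cyp12a4* had 38.8, 40.1, 46.7 and 51.0 CPM in *Top3b26*, against 29.1, 32.7, 62.4 and 69.7 CPM in w1118. *Cyp4e2* had 73.2, 64.6, 70.2 and 69.0 CPM in *Top3b26*, against 56.8, 45.4, 87.8 and 104 CPM in w1118. For these 5 genes w1118 replicates 3 and 4 had the highest values. Those are the libraries with a high fat body sum, most of it from yolk protein genes. The part of fat body content, sex ratio or yolk gene expression in these values was not tested. Without these libraries the log2 fold changes of the 5 genes were positive, at 1.22 for *Cyp6g1*, 0.43 for *Cyp28d1*, 1.24 for *Cyp309a2*, 0.48 for *Cyp12a4* and 0.39 for *Cyp4e2* (edgeR adjusted p = 0.11 to 0.45). That fit sets *Top3b26* libraries of both sets against w1118 replicates 1 and 2 alone, and the 5 genes were 0.62 to 2.28 higher on the log2 scale in replicates 3 and 4 than in 1 and 2, so that genotype and replicate set cannot be told apart in it.

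In the other 5 genes the larger log2 fold change, by size, lay in replicates 1 and 2. *Cyp305a1*, of the CYP2 clan, had 38.8, 38.3, 22.2 and 25.1 CPM in *Top3b26*, against 14.7, 14.5, 27.3 and 23.4 CPM in w1118. *Cyp6d2* had 3.05, 4.19, 7.47 and 7.51 CPM in *Top3b26*, against 13.9, 8.18, 3.18 and 3.95 CPM in w1118. *Cyp6d2* was called lower in replicates 1 and 2 (-1.79) and higher in replicates 3 and 4 (0.95; edgeR adjusted p = 0.0012 and 0.032), and 51% of its exon bases lie opposite exons of *nsr*.

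*Cyp4d8* had 9.69, 8.23, 4.36 and 6.44 CPM in *Top3b26*, against 3.32, 4.24, 9.37 and 6.85 CPM in w1118. *Cyp4c3* had 1.795, 2.54, 11.4 and 11.5 CPM in *Top3b26*, against 3.48, 5.15, 6.83 and 6.85 CPM in w1118. *Top3b26* was higher for *Cyp4d8* and lower for *Cyp4c3* in replicates 1 and 2, and the group means were the other way round in replicates 3 and 4. *Cyp9c1*, the tenth, kept its sign, with 19.4, 25.4, 11.6 and 13.8 CPM in *Top3b26*, against 4.27, 5.15, 7.31 and 9.62 CPM in w1118. Its log2 fold change was 2.13 ± 0.28 for replicates 1 and 2 but 0.48 ± 0.20 for replicates 3 and 4 (SE), and an antisense RNA covers 98.2% of its exon bases, so its counts may come from either strand. *Top3b26* replicates 1 and 2 are also those with few photoreceptor transcripts, and their part in these values was not tested.

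**Figure D3:**
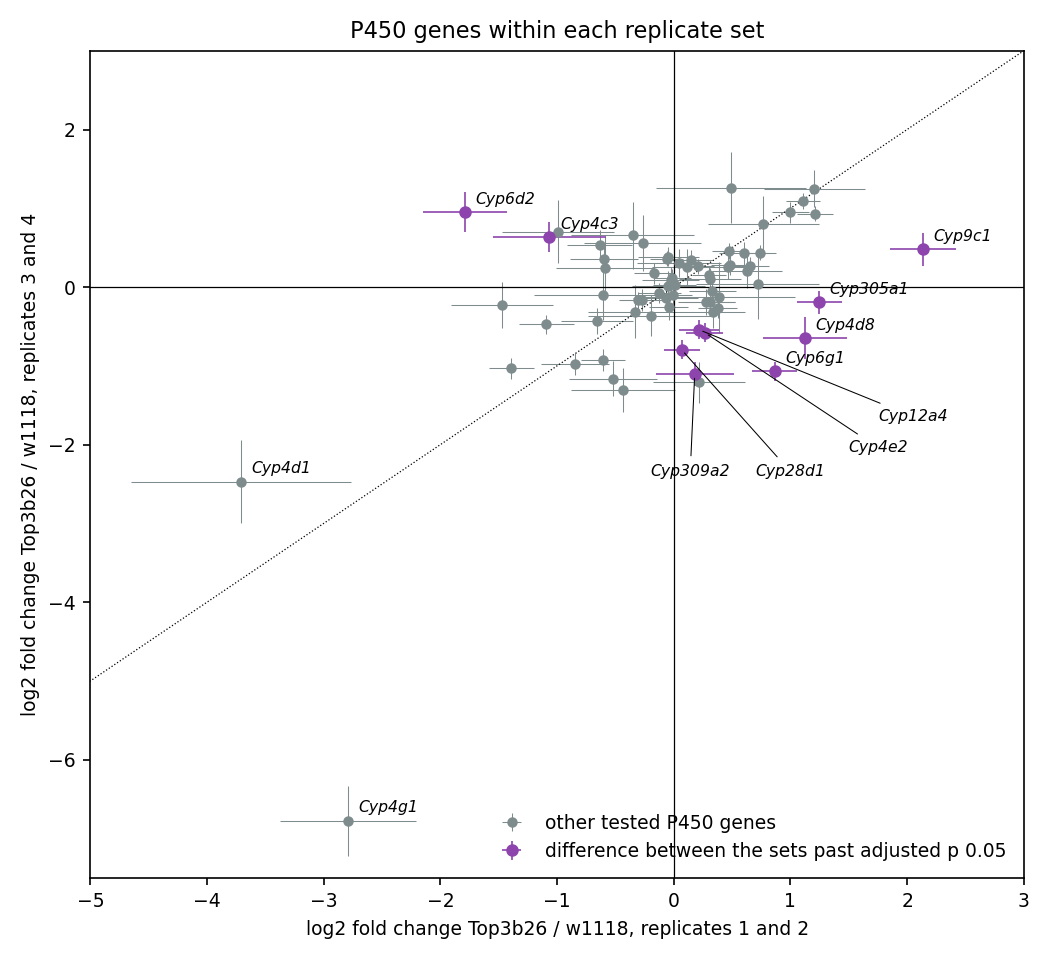
Log2 fold change, *Top3b26* over w1118, in replicates 1 and 2 (x axis) against replicates 3 and 4 (y axis) for the P450 genes tested in both sets (bars are standard errors, 2 libraries a group in each set). Purple points are the 10 genes whose difference passed the interaction test, from *Cyp6d2* at -1.79 and 0.95 to *Cyp9c1* at 2.13 and 0.48. The dotted line marks equal values.

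**Figure D4:**
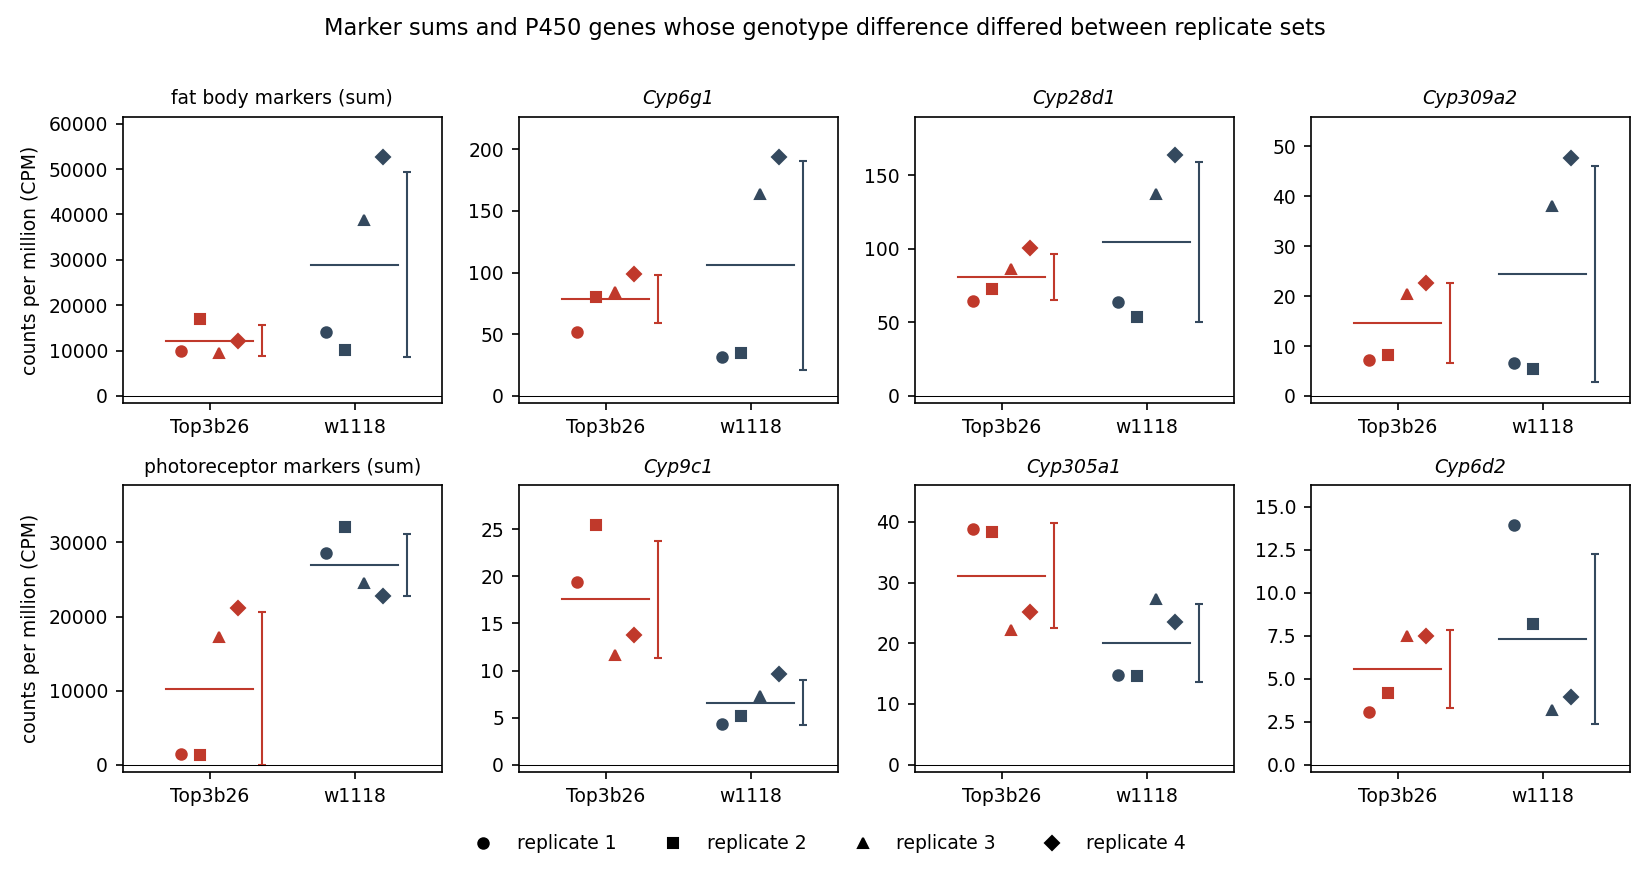
Summed CPM of fat body markers (top left) and photoreceptor markers (bottom left), and CPM of 6 P450 genes that passed the interaction test (symbols are replicates 1 to 4, horizontal lines are means and side bars are SD, n = 4). In the top row w1118 replicates 3 and 4 are the highest, at 163 and 194 CPM for *Cyp6g1*. In the bottom row *Top3b26* replicates 1 and 2 are the lowest for photoreceptor markers, at 1418 and 1370 CPM.

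P450 genes also differed between the replicate sets. With genotype in the model, edgeR called 24 of the 70 genes higher in replicates 3 and 4 than in replicates 1 and 2, against 12.3% of all tested genes. It called 0 lower, against 6.32% of all genes, and before adjustment p was at most 0.05 for 10 lower members. The share of all genes before adjustment is not given here for that test. The median log2 difference of the 70 was 0.36, against -0.02 over all tested genes. By CPM, both libraries of replicates 3 and 4 lay higher than both of replicates 1 and 2 for 33 members in *Top3b26* (23.4% of all genes) and 37 in w1118 (23.7% of all genes). Both lay lower for 23 members in *Top3b26* (48.4% of all genes) and 16 in w1118 (43.7% of all genes). *Cyp309a2* at 2.28 ± 0.24, *Cyp309a1* at 2.15 ± 0.15, *Cyp4c3* at 1.71 ± 0.32 and *Cyp4e3* at 1.64 ± 0.17 had the largest log2 differences (SE). Of the 24, 6 also passed the interaction test, namely *Cyp12a4*, *Cyp28d1*, *Cyp309a2*, *Cyp4c3*, *Cyp4e2* and *Cyp6g1*, so that their difference between sets was not the same in both genotypes. *Cyp4e2* had 70.2 and 69.0 CPM in *Top3b26* replicates 3 and 4, against 73.2 and 64.6 CPM in *Top3b26* replicates 1 and 2. Without *Top3b26* replicates 1 and 2, which leaves the set difference to w1118, edgeR called 26 of 72 genes higher and 3 lower (12.4% and 7.15% of all genes). Without w1118 replicates 3 and 4, which leaves it to *Top3b26*, it called 19 of 71 higher and 2 lower (12.1% and 7.17% of all genes). Marker lists differed between the sets as well, but not always in both genotypes. With genotype in the model, the set difference was positive for 7 of 7 tested fat body markers (median log2 difference 1.02), 5 of 5 photoreceptor markers (median 1.87) and 4 of 5 glia markers (median 0.70). The fat body sum rose in w1118 alone, and over *Top3b26* replicates 1 to 4 it was 9986, 16934, 9512 and 12161 CPM. The photoreceptor sum rose in *Top3b26* alone, and over w1118 replicates 1 to 4 it was 28509, 32064, 24469 and 22816 CPM. Reads not uniquely aligned were 16.6% to 20.1% in replicates 3 and 4, against 23.7% to 30.4% in replicates 1 and 2. The part of either in the differences of the 24 genes was not tested. The 24 included *Cyp6a8*, *Cyp6g1*, *Cyp28d1* and *Cyp12a4* of the detoxifying members, as well as *Cyp313a1* and *Cyp4p1*.

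Other members with a known role were not called. *Cyp18a1*, which inactivates 20-hydroxyecdysone, averaged 29.3 ± 5.63 CPM in *Top3b26* and 31.6 ± 7.77 CPM in w1118 (SD, n = 4 each), and *Cyp4g15* averaged 61.2 ± 7.82 CPM in *Top3b26* and 43.2 ± 3.43 CPM in w1118. All 4 *Top3b26* libraries were above all 4 w1118 libraries for *Cyp4g15*, with a log2 fold change of 0.37 ± 0.13 (SE, edgeR adjusted p = 0.30). *Cyp6d5* also did not overlap, at 254 ± 33.3 CPM in *Top3b26* and 168 ± 28.8 CPM in w1118, and its log2 fold change of 0.45 ± 0.17 did not pass (edgeR adjusted p = 0.31). *Cyp6a20* averaged 124 ± 28.6 CPM in *Top3b26* and 100.1 ± 10.002 CPM in w1118, and its log2 fold change was 0.19 ± 0.22. *Cyp303a1*, needed for bristle development, had 14.9 ± 1.47 CPM in *Top3b26* and 13.3 ± 1.02 CPM in w1118, and 33.0% of its exon bases lie opposite exons of *heix*. *Cyp301a1*, a cuticle gene, *Cyp6t3*, a gene of ecdysone synthesis, and *Cyp6g2* averaged under 5 CPM in both groups and had log2 fold changes of 0.15, -0.22 and -0.38. *Cyp6w1* had 45.6 ± 6.03 CPM in *Top3b26* and 43.6 ± 5.57 CPM in w1118.

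The abundant members that were not called lay on both sides in CPM. *Cyp28d1* averaged 81.1 CPM in *Top3b26* and 105 CPM in w1118, and *Cyp6g1* 78.8 CPM in *Top3b26* and 106 CPM in w1118. *Cyp4p1* had 109.5, 114.9, 138 and 156 CPM in *Top3b26*, against 78.5, 66.6, 97.5 and 102 CPM in w1118. With the block its adjusted p was 0.041 (edgeR) but its log2 fold change of 0.47 stayed under the fold threshold. *Cyp28a5* averaged 116 ± 8.9 CPM in *Top3b26* and 89.9 ± 6.5 CPM in w1118. *Cyp317a1*, whose exons share 32.6% of their bases with *Kank* on the other strand, averaged 100.5 ± 11.4 CPM in *Top3b26* and 78.7 ± 5.62 CPM in w1118. Among the largest fold changes that were not called, *Cyp308a1* was at 1.05 ± 0.49 and *Cyp6t1* at -1.01 ± 0.36 on the log2 scale (SE, edgeR adjusted p = 0.42 and 0.31). Both averaged under 7 CPM in each group.

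The count filter left out 12 members, and 2 of them, *Cyp313a2* and *Cyp12d1-d*, had no count in any library. *Cyp12d1-p* and *Cyp12d1-d* are near-identical copies linked to DDT resistance, and reads that align to both were not counted, so their values are uncertain. *Cyp12d1-p* had 36 counts in *Top3b26* and 42 in w1118. *Cyp304a1*, of the CYP2 clan at chr3R:12963791-12965923, had 0, 0.15, 0 and 0.153 CPM in *Top3b26*, against 5.38, 4.85, 1.43 and 0.263 CPM in w1118. This amounts to 2 counts against 61, a ratio 30.6-fold lower in *Top3b26* with a 95% counting interval of 8.12 to 259. All 4 *Top3b26* libraries were below all 4 w1118 libraries, and the gene was singled out after its values were seen. Within w1118, replicate 4 was near the *Top3b26* level.

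No test compared the clans. In the 8-library fit the CYP3 clan had 15 positive and 18 negative log2 fold changes with a median of -0.01, and 1 gene called higher. The CYP4 clan had 15 positive and 12 negative values with a median of 0.09, with 1 gene called higher and 2 lower. Neither the 3 tested CYP2 members nor the 7 tested mitochondrial members were called, with medians of 0.03 and 0.02. By position, 46 of the 82 genes lay within 20 kb of another P450 gene, in 16 clusters. The largest held 9 genes at chr2R:14871366-14903095, and its 8 tested genes had 5 positive and 3 negative values. The X-linked cluster of *Cyp4d1*, *Cyp4d14*, *Cyp4d2* and *Cyp4ae1* had 2 positive and 2 negative values, from -2.94 for *Cyp4d1* to 0.20. Antisense RNAs cover 96.2% of the exon bases of *Cyp4d14*, 98.7% of *Cyp4d2* and 88.3% of *Cyp4ae1*, so the counts of these neighbours may come from either strand.

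Genes listed as working with P450 enzymes were called in neither direction with all 8 libraries. Of 29 tested genes for electron donors, heme synthesis, ecdysone synthesis, xenobiotic regulators and hydrocarbon synthesis that are not members, edgeR called 0. Over all tested genes it called 0.249% higher and 0.664% lower. Before adjustment edgeR's p was at most 0.05 for 0 higher and 2 lower genes, against 5.03% and 7.34% of all genes. DESeq2 (0.623% and 1.79% of all genes) and limma voom (0.239% and 0.654%) also called 0 of the 29. At these shares 0 calls in 29 genes do not set them apart. In replicates 3 and 4 alone, edgeR called 2 of 6 genes of the electron donor list lower (5.95% of all genes). Of 6 genes of the hydrocarbon list, it called 4 lower and 1 higher there (1.52% of all genes higher). In replicates 1 and 2 alone it called 1 of 5 hydrocarbon genes lower (7.03% of all genes). The part of the high fat body sum of w1118 replicates 3 and 4 in these calls was not tested. *Cpr*, the reductase that serves all microsomal P450 enzymes, had 138, 145, 155 and 180.0 CPM in *Top3b26*, against 116, 97.8, 172 and 178 CPM in w1118. Its log2 fold change was -0.01 ± 0.25 (SE, edgeR adjusted p = 0.99). *Cyt-b5-r* was placed in the electron donor list, but whether it passes electrons to P450 enzymes is not given in the sources used here. It had 117, 159, 284 and 346 CPM in *Top3b26*, against 154, 154, 567 and 710.1 CPM in w1118. Its w1118 replicates 3 and 4, those with high fat body markers, were the highest. Of the ecdysone synthesis P450 genes under other symbols, *dib* averaged 14.5 ± 4.27 CPM in *Top3b26* and 17.6 ± 5.38 CPM in w1118. *Alas*, the first enzyme of heme synthesis, and *cnc*, a regulator of detoxifying genes, had log2 fold changes of 0.12 and -0.20.

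With the replicate block, 2 genes of the hydrocarbon list were called. *Desat1*, a fatty acid desaturase, had 689.6, 791, 1010.2 and 1083 CPM in *Top3b26*, against 1056, 1067, 1705 and 1999 CPM in w1118. Its log2 fold change was -0.80 ± 0.13 (SE, edgeR adjusted p = 0.015). The fatty acid synthase gene listed as *v(2)k05816*, now *FASN2*, had 1.08, 1.35, 14.3 and 16.6 CPM in *Top3b26*, against 0.475, 1.21, 4.92 and 5.53 CPM in w1118 and was called higher at 1.27 ± 0.27 (SE, edgeR adjusted p = 0.035). *Cyp4g1* and *Desat1*, both of hydrocarbon synthesis, were lower in *Top3b26* in the block fit, whereas *v(2)k05816* was higher, and oenocyte content was not measured here.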

How the data were processed

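The deposited files hold whole-number counts per gene symbol, made by the authors from head RNA with TopHat2 2.1.1 against dm6, per the labels' processing notes; the counting tool and its strand setting are not given in the sources used here. The header of 1 file names CPM, but its values are whole counts and were used as such. Rows that name no gene were left out, and of all reads in a file they held 43.1% to 48.9% in no feature, 16.6% to 30.4% not uniquely aligned and 0.56% to 0.956% ambiguous. Symbols were matched to the Ensembl release 115 annotation of dm6 (12512 by symbol, 3996 by synonym, 219 not matched), including all 83 Cyp symbols. Groups were taken from the labels.

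Genes were filtered by filterByExpr, scaled by TMM and tested in R 4.3.3 with edgeR 4.0.16 (glmQLFit and glmQLFTest; genotype alone as the term) over 9633 genes, with Benjamini-Hochberg adjustment over all of them. Simulated counts were also fitted, with the same spread for all genes and without libraries that stand apart as some did here. They do not show how often calls in these data are false. DESeq2 1.42.0 and limma 3.58.1 (voom), other scalings and filters, an exon length offset, the replicate number as a block, the 2 replicate sets, and each library left out in turn were alternatives. Libraries with the same replicate number correlated in their deviations from group means (4 pairs, lowest r = 0.44, mean 0.55). The other number of the same replicate set gave a mean of 0.57, so the correlations cannot tell pairing by number from the shared set. Every same-number pair passed 0.1, and the number was used as a block on that basis alone. Files of replicates 1 and 2 have header lines, which those of replicates 3 and 4 lack. The study's methods speak of independently prepared RNA sets, fewer than the 4 labelled replicates. A ratio of summed counts was given a 95% interval, which covers counting error only.

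Named genes were the members called with or without the block, the 10 most abundant, the 5 largest changes each way, the interaction members of opposite sign, members of known role, Top3β, and from each pathway list the called genes and the most abundant one. Members, lists and rule were chosen with earlier results of these data known. The 2 alternatives that leave out libraries with unusual photoreceptor or fat body markers were added after seeing the data.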

Additional observations from a re-analysis of the deposited data

Results flagged for a closer look

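*Cyp6d5* was the 1 case of 84 groups of 4 libraries in which 1 library lay far from the others. It had 125 CPM in w1118 replicate 2, against 179 to 187 CPM in the other w1118 libraries, and such gaps arise in about 1 in 20 groups by chance.

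For 10 P450 genes the genotype difference differed between the replicate sets in edgeR's interaction test. The difference of log2 fold changes, replicates 3 and 4 minus replicates 1 and 2, was positive for *Cyp6d2* at 2.71 and *Cyp4c3* at 1.65. It was negative for *Cyp6g1* at -1.97, *Cyp4d8* at -1.82, *Cyp9c1* at -1.69, *Cyp305a1* at -1.48, *Cyp309a2* at -1.31, *Cyp28d1* at -0.90, *Cyp4e2* at -0.87 and *Cyp12a4* at -0.79.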

How the results depend on the processing

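With all 8 libraries edgeR called 2 P450 genes higher and 2 lower. DESeq2 called 4 and 4, the replicate block 5 and 5 (also with an exon length offset), the replicate set as a term 6 and 8, replicates 1 and 2 alone 9 and 8, and replicates 3 and 4 alone 5 and 11. Limma voom and a filter of 10 counts in every library of one genotype each called 1 lower. Without *Top3b26* replicates 1 and 2, 0 were called either way. Leaving out 1 library or 1 replicate number gave 0 to 2 higher and 0 to 2 lower calls. The shares of all genes called in these fits are not given here, so a lost call cannot be read as particular to P450 genes. With 1 replicate number left out, p before adjustment was at most 0.05 for 7 to 9 higher and 6 lower members, and the shares of all genes are not given here. With 1 library left out, the interaction count of 10 ranged from 4 to 12, and the replicate set count of 24 from 20 to 26. The shares of all genes in those fits are not given here. Without *Top3b26* replicates 1 and 2 the set count was 29, and without w1118 replicates 3 and 4 it was 21. The interaction could not be fitted without either pair, since each makes up 1 set of 1 genotype. In the pathway lists, with 29 genes tested in the 8-library fit, 0 higher and 0 lower calls became 1 and 1 with the block (0.914% and 2.91% of all genes). They became 1 and 2 with the set as a term (1.41% and 4.18%). Replicates 3 and 4 alone gave 1 and 6 (1.52% and 5.95%), and replicates 1 and 2 alone gave 0 and 1 (3.5% and 7.03%). The length offset with the block gave 1 lower, and its share of all genes is not given here.

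Signs turned, where the change exceeded its standard error in either fit, for 17 values. In replicates 1 and 2 alone these were *Cyp309a2* at 0.18, *Cyp28d1* at 0.068, *Cyp6g1* at 0.86, *Cyp12a4* at 0.22, *Cyp4e2* at 0.27 and *Cyp4c3* at -1.07, and in replicates 3 and 4 alone *Cyp6d2* at 0.95, *Cyp305a1* at -0.20, *Cyp6t3* at 0.70 and *Cyp4d8* at -0.65. Without w1118 replicates 3 and 4 they were *Cyp4e2* at 0.39, *Cyp309a1* at 0.55, *Cyp12a4* at 0.48, *Cyp6g1* at 1.22, *Cyp28d1* at 0.43, *Cyp309a2* at 1.24 and *Cyt-b5-r* at 0.55. Genotype and replicate set cannot be told apart in that fit, and *Cyp309a1* was negative in both sets. The cause was not tested. Of the other values, 1028 kept direction and side of the threshold, 64 newly passed and 29 no longer passed. Counts under 3 reads, as in several libraries for *Cyp4g1*, *Cyp4d1* and *Cyp304a1*, limit these ratios.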
